A study of Mus musculus with 8 samples.

Results

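The 77 genes described here encode proteins of the cytoplasmic ribosome, and they were taken from the deposited table of 23284 gene rows as those whose symbol is Rpsa or has the form Rpl, Rps or Rplp followed by a number, with or without a final a or x. They comprise 31 genes for the small (40S) subunit and 46 for the large (60S) subunit. The symbol rule itself uses no measured value, but the set was chosen with earlier results of these data known. Fau, which encodes a ribosomal protein fused to a ubiquitin-like protein, does not carry such a symbol and is reported separately.

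The measurements were FPKM values (sequenced fragments scaled by transcript length and library size) from 8 strand-specific poly(A) RNA-seq libraries. The cells were mouse iPSCs (induced pluripotent stem cells), which were reprogrammed from embryonic fibroblasts and grown on feeder cells. The study asked how transient silencing of the DNA methyltransferases Dnmt3a and Dnmt3b compares with a past pulse of the microRNA miR-203. Wild-type iPSCs, labelled ColA1_miR203 (+/+) and Rosa26rtTA (+/+), received siRNA Control (siControl), siRNA Dnmt3a, siRNA Dnmt3b or both siRNAs (the double siRNA library), and RNA was taken 1 week after transfection, giving 1 library for each treatment. Knock-in iPSCs, labelled ColA1_miR203 (KI/KI) and Rosa26rtTA (KI/KI), carry miR-203 and the doxycycline-responsive transactivator. They were given doxycycline for 5 days and collected 2 weeks after its withdrawal (dox), or were given vehicle, with clones 1 and 2 in each group. All 4 knock-in libraries therefore carry both transgenes. The labels do not say that clone 1 of the dox group and clone 1 of the vehicle group are the same clone, or whether the clones were grown separately, so p-values measure the spread between these libraries.

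A mammalian ribosome has a small subunit that reads the mRNA and a large subunit that joins amino acids, and most ribosomal proteins are needed in equal amounts. Their mRNAs are short, very abundant and begin with a stretch of pyrimidines, the TOP motif, through which mTOR signalling sets their translation. Each protein is usually made from 1 intron-containing gene, while the genome holds many intronless processed pseudogenes copied from the same mRNAs.

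Some facts of the libraries touch every result. Dnmt3a was 75.1 FPKM with siControl, 59.8 with siDnmt3a, 77.6 with siDnmt3b and 69.5 in the double siRNA library. Dnmt3b was 146, 135, 128 and 135 FPKM in the same order, so it was as low with siDnmt3a, which does not target it, as in the double siRNA library. In the knock-in libraries Dnmt3a was 8.85 and 9.55 FPKM with vehicle and 7.55 and 7.64 with dox, and Dnmt3b was 68.8 and 55.1 with vehicle and 21.5 and 20.8 with dox. Of 12 pluripotency markers none was at 0 in all libraries, and their summed level was 3122 to 3918 FPKM in the wild-type libraries, 3580 to 3986 with vehicle and 4445 to 4582 with dox. A few abundant markers carry that sum: Dppa5a had a mean of 1086 FPKM with vehicle and 1924 with dox, while 6 of the 12 markers were above and 6 below vehicle (median -0.02). Single markers differed in opposite directions between siControl and the vehicle mean, with Nanog at 71.3 against 233 FPKM, Klf4 at 20.4 against 65.3, Esrrb at 46.0 against 168, Utf1 at 240.1 against 128 and Lin28a at 164 against 102. The summed level of 27 fibroblast (feeder) markers was 641 to 815 FPKM in the wild-type libraries, 1743 to 1982 with vehicle and 4929 to 5152 with dox, and that of 8 macrophage markers was 138 to 189, 230 to 256 and 309 to 397 FPKM. The table holds no read counts, and sequencing depth was not inferred from it.

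Ribosomal protein mRNAs made up 20.9% to 27.7% of all FPKM in these cells, a level per length. They held 24.1% of the FPKM sum in the siControl library, 25.2% with siDnmt3a, 24.5% with siDnmt3b and 27.7% in the double siRNA library. In the knock-in libraries they held 21.5% and 20.9% with vehicle and 21.8% in each dox clone. The double siRNA library thus had the highest share and the second vehicle clone the lowest. The median gene stood at 1591, 1671, 1568 and 1979 FPKM in the wild-type libraries in the same order, at 1337 and 1269 FPKM with vehicle, and at 1349 and 1350 FPKM with dox. The summed FPKM of the 40S genes was 0.766 to 0.793 times that of the 60S genes in every library, so the balance between the subunits moved little.

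**Figure D1:**
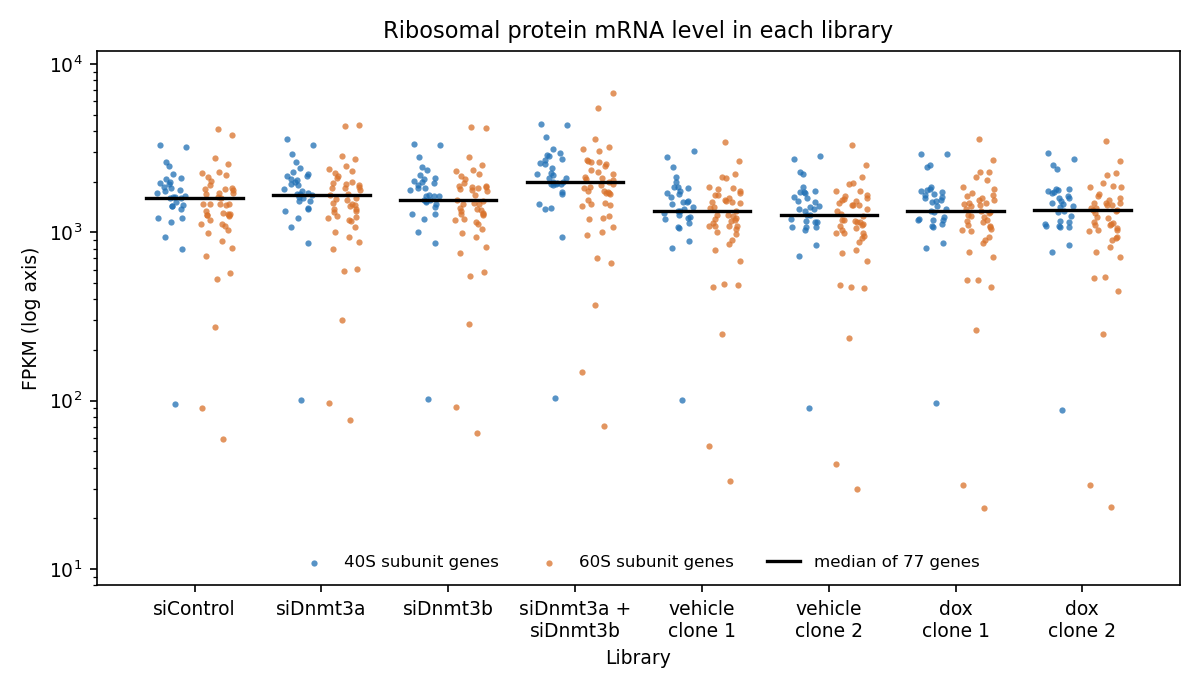
Level of each of the 77 ribosomal protein genes in each of the 8 libraries, in FPKM on a log axis, with 40S genes in blue, 60S genes in orange and the median of all 77 as a bar. The median is highest in the double siRNA library (1979 FPKM), and Rps15a, Rpl34 and Rpl30 lie far below the other genes in every library.

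The highest mean levels over the 8 libraries belonged to Rplp1 (3994 FPKM), Rpl41 (3696 FPKM), Rps2 (3266 FPKM), Rps12 (3213 FPKM) and Rps18 (2727 FPKM). Rplp1 is an acidic protein of the ribosomal stalk, which recruits elongation factors, Rpl41 is the smallest protein of the large subunit, and Rps2, Rps12 and Rps18 belong to the small subunit. At the other end stood Rpl30 (47.6 FPKM), Rpl34 (73.4 FPKM), Rps15a (97.5 FPKM), Rpl22 (279 FPKM) and Rpl21 (537 FPKM), of which all except Rps15a belong to the large subunit. Ribosomes hold most of these proteins in equal amounts, while the listed mRNA levels spanned from 47.6 to 3994 FPKM.

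Many of these rows share sequence with other genes. Of the 77 genes, 76 had at least 1 stretch of 50 bases that also occurs in a transcript of another gene of GENCODE M21. For 21 genes at least 50% of the stretches did, pooled over the annotated protein-coding transcripts of each gene. The table lists a processed pseudogene of Rpl30, named Gm12191, at 1177 to 1433 FPKM, and one of Rpl34, named Rpl34-ps1, at 1063 to 1998 FPKM, so both pseudogenes were listed far above the genes they were copied from. The coding sequences of Rpl30 (chr15:34440505-34443640, minus strand) and Gm12191 (chr11:49678710-49679057, minus strand; GRCm38) were identical at 344 of 345 aligned bases, with the substitution G96A. Rpl34 (chr3:130726831-130730398, minus strand) and Rpl34-ps1 (chr6:71124610-71124963, plus strand) were identical at 349 of 351, with T132C and C318G. Positions are counted from the first coding base of the gene, whose base comes first. The stretches of 60 coding bases around the only Rpl30 difference and the first Rpl34 difference, from GENCODE M21, are shown because, within the aligned coding bases, gene and copy can be told apart only at such places; the differing base is in capitals. Pooled over all annotated protein-coding transcripts of each gene, the overlap is smaller. Of the stretches of 50 bases, 22.5% of those of Rpl30 occur in Gm12191 and 11.0% of those of Rpl34 in Rpl34-ps1. For a single transcript the share can be larger, because the pool includes alternative transcripts.
Rpl30: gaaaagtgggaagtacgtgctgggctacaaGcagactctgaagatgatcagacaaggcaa
Gm12191: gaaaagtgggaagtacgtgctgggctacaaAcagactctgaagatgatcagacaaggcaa
Rpl34: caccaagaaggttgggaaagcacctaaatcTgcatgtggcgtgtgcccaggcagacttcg
Rpl34-ps1: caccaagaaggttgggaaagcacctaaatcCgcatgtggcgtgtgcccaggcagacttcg

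Promoters were compared because the genes of the set moved together in the double siRNA library, as described further on. RefSeq (GRCm38.p6) windows of 250 bases before to 50 bases after the annotated start were found for 57 of the 77 genes. The letters CCGGAAG, the core bound by ETS family factors, were present on either strand in 40.4% of those 57 windows and in 9.12% of the 27025 windows of all genes. AAGATGG, the core of the YY1 site, was in 14.0% against 6.48%. CTTTCC, a pyrimidine run, was in 47.4% against 26.3%, and TATAAA, the TATA box, was in 8.77% against 14.2%. All strings were counted on either strand and anywhere in the window. A CTTTCC match, read as GGAAAG on the other strand, therefore does not show a TOP motif. None of the 4 strings contains another on either strand, and a match describes the letters only. The median GC content of the windows was 58.0% against 52.7% over all windows. Genes with the CCGGAAG match had a median double siRNA difference of 0.42 (log2) and those without it 0.38. The part from 100 bases before to 20 bases after the start is shown for 4 genes with large double siRNA differences (Rpl41, Rpl34, Rpl13a, Rps21) and 5 with small ones (Rps15a, Rps4x, Rpl23, Rpl4, Rps3a), with matches to these strings in capitals.
Rpl41, chr10:128549149-128549268, minus strand: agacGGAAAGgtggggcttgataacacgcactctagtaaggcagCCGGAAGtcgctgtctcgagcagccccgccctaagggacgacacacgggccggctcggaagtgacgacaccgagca
Rpl34, chr3:130730379-130730498, minus strand: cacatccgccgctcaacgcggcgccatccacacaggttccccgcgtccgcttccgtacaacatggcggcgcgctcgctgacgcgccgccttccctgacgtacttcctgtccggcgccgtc
Rpl13a, chr7:45128726-45128845, minus strand: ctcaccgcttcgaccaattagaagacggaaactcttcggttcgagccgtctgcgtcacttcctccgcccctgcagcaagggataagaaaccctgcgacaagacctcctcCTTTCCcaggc
Rps21, chr2:180257279-180257398, plus strand: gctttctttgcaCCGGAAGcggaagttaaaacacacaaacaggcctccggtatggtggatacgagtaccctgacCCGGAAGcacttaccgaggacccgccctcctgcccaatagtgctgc
Rps15a, chr7:118116128-118116247, minus strand: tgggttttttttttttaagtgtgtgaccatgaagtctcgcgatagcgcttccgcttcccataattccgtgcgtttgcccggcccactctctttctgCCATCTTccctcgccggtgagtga
Rps4x, chrX:102189372-102189491, minus strand: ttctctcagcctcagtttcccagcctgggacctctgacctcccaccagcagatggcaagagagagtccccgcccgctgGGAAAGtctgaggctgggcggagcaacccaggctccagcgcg
Rpl23, chr11:97782420-97782539, minus strand: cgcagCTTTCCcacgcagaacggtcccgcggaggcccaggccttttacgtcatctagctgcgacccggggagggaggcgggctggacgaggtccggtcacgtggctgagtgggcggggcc
Rpl4, chr9:64173287-64173406, plus strand: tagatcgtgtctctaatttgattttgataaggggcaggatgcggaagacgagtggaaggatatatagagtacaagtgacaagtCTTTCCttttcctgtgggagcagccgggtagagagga
Rps3a, chr3:86142649-86142768, minus strand: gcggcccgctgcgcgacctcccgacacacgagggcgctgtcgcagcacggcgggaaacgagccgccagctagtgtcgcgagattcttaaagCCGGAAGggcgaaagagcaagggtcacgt
The ETS core occurs in the part shown of Rpl41 and Rps21 and also of Rps3a, and the YY1 core in that of Rps15a. Rpl34 holds none of the 4 strings in its whole window. Its difference is 0.70 alone and 0.48 with its pseudogene row added, so its place among the large ones is uncertain. The shown genes were picked by their differences, and a link between motif and difference was not tested.

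In the double siRNA library every ribosomal protein mRNA was listed above its siControl level. The difference of log2(FPKM + 1) was above 0 for 77 of 77 genes, where it was above 0 for 51.6% of all 11723 genes with a mean FPKM of at least 1 in the 2 libraries. Its median was 0.38, or 29.9% more FPKM, against a median of 0.01 over all genes, and it ranged from 0.11 to 0.84. With 60 of 77 genes at 1.2-fold or more, the set stood beside 11.5% of all genes, and no member was 1.2-fold lower, beside 11.4% of all genes. Each treatment has 1 library, so these differences have no replicate check and no test. The 2 subunits moved alike, with a median of 0.37 for the 40S genes and 0.38 for the 60S genes. For scale, the median difference of the same genes between the 2 clones of a group was 0.03 with dox and 0.09 with vehicle. FPKM are relative to the library, so in bulk RNA more of these mRNAs per cell and more cells rich in them cannot be told apart.

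Rpl41 showed the largest difference. Its level was 3772 FPKM with siControl, 4365 with siDnmt3a, 4150 with siDnmt3b and 6752 in the double siRNA library, beside 2660 and 2520 FPKM with vehicle and 2690 and 2659 with dox. The double siRNA library was the highest of the 8 by a wide margin, 79.0% above siControl (0.84 on the log2 scale). Rps14, a protein of the small subunit's platform, followed with 1784, 2150, 1959 and 2975 FPKM in the wild-type libraries in the same order (0.74). Rpl34 read 90.7, 97.3, 92.2 and 147 FPKM (0.70), and with its pseudogene added 1540, 1646, 1585 and 2146 FPKM (0.48). In all 3 the 2 single siRNA libraries lay between siControl and the double siRNA library, nearer to siControl. Rpl13a, known beyond the ribosome for silencing inflammatory mRNAs, read 1695, 1966, 1803 and 2707 FPKM (0.68). Rpl36, of the large subunit, read 1343, 1500, 1390 and 2075 FPKM (0.63), and Rps21, of the small subunit, 1433, 1617, 1537 and 2195 FPKM (0.61). The same order of the 4 libraries thus held for the 6 genes of largest difference, which were all at least 1.5-fold higher, along with 1 further gene of the 77, Rpl11, a protein that binds Mdm2 (0.61).

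No gene was lower, so the genes of smallest difference were named after their values were seen. Rps15a read 95.8 FPKM with siControl, 102 with siDnmt3a, 102 with siDnmt3b and 104 in the double siRNA library (0.11). Rps4x, the X-linked form of a small-subunit protein, read 1935, 1992, 1985 and 2111 FPKM (0.13), and Rpl23, a large-subunit protein that also binds Mdm2, read 1115, 1184, 1153 and 1219 FPKM (0.13). Rpl7 (0.17), Rpl4 (0.17), which lines the exit tunnel of the large subunit, and Rps3a (0.18) came next. In Rps15a, Rps4x and Rpl23 too the siControl library was the lowest and the double siRNA library the highest of the wild-type libraries. Among the proteins of the ribosomal stalk the differences were 0.38 for Rplp0, 0.40 for Rplp1 and 0.43 for Rplp2, and Rpsa, which also binds laminin as a receptor precursor, stood at 0.36, all close to the median.

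The double siRNA library was the highest of all 8 libraries for 76 of the 77 genes, where it was the highest for 24.6% of 12042 genes, and it was above the other 3 wild-type libraries for 76, against 40.5% of 11716. The exception in each case was Rpl30, which read 59.1 FPKM with siControl, 77.1 with siDnmt3a, 64.3 with siDnmt3b and 70.4 with both. With Gm12191 added, the Rpl30 sum was 1382, 1465, 1453 and 1504 FPKM, a sum that Gm12191 mostly sets. The second vehicle clone was the lowest of the 8 libraries for 49 of the 77 genes, a count for which no share over all genes is given.

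**Figure D2:**
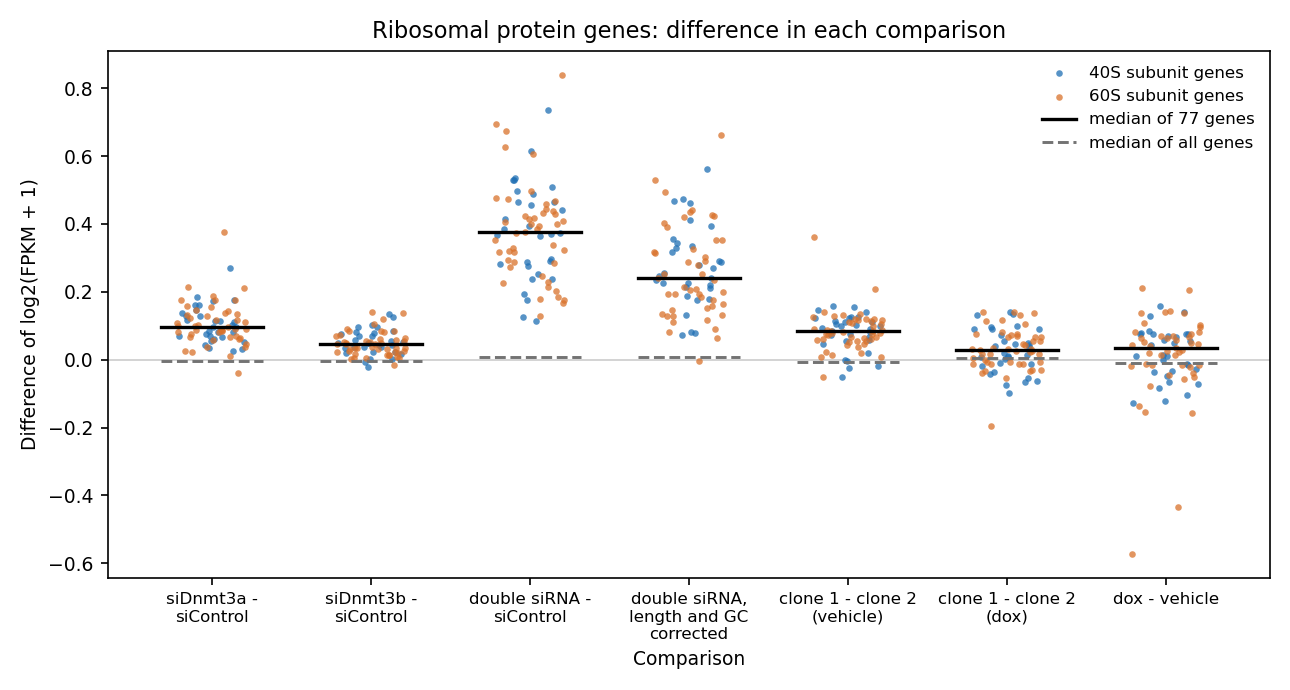
Difference of log2(FPKM + 1) of each of the 77 genes in 7 comparisons, with 40S genes in blue, 60S genes in orange, the median of the 77 as a solid bar and the median of all genes as a dashed bar. The double siRNA library stands apart (median 0.38, or 0.24 after correction for length and GC content), while the single siRNA, clone and dox medians lie between 0.03 and 0.10.

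The single siRNA libraries showed small differences in the same direction. With siDnmt3a the median was 0.10, or 6.81% more FPKM; 76 of 77 genes were above siControl, beside 48.3% of 11768 genes, and Rpl14 was the exception (-0.04). Only Rpl30 (0.38) and Rps14 (0.27) reached 1.2-fold higher, beside 2.49% of all genes, and none was 1.2-fold lower, beside 3.1%. With siDnmt3b the median was 0.05, or 3.22%, and 74 of 77 genes were above siControl, beside 48.7% of 11727. The 3 others were Rps26 (-0.02), Rpl13 (-0.01) and Rps20 (-0.0077). No gene reached 1.2-fold in either direction, beside 1.27% of all genes higher and 3.43% lower. These medians were of the size of the clone medians above (0.03 and 0.09). The 3 comparisons share the siControl library, so a low siControl value would raise all of them; against the mean of the 2 single siRNA libraries in place of siControl the double siRNA median was 0.31. The double siRNA difference exceeded the sum of the single ones for 74 of 77 genes, by a median of 0.24, where it did so for 54.6% of 11716 genes by a median of 0.03. The 3 genes below that sum were Rpl30 (-0.25), Rps15a (-0.06) and Rpl23 (-0.0062). This excess is for the values as deposited and depends on scaling and correction, described below. With the same FPKM sum the medians were 0.18 for both siRNAs, 0.06 for siDnmt3a and 0.02 for siDnmt3b. After length and GC correction they were 0.24, 0.07 and 0.04.

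Ribosomal protein transcripts are short, and short transcripts as a whole were higher in the double siRNA library. The length of a gene is the median over its annotated protein-coding transcripts, which need not be the length of the expressed form. Its median was 711.5 bases for the 77 genes, from 367.5 for Rpl38 to 3706 for Rps20, against 2072 for all genes tested. The median GC content of the 77 genes was 51.9% against 51.1%. They were thus much shorter than other genes and nearly equal in GC content. Over 11608 genes with a gene model the Spearman correlation of the double siRNA difference with length was -0.39, and with GC content 0.50. Over the 77 ribosomal protein genes alone it was -0.29 with length (-0.28 without Rpl41) and 0.42 with GC content. Genes are not independent replicates, all points share the same 2 libraries, and the values are descriptions. With the longest transcript of each gene in place of the median length, the length correlation was -0.49 over all genes and -0.13 over the 77. In the siDnmt3a and siDnmt3b comparisons the length correlation over all genes was -0.18 and -0.09, and between clones it was 0.04 with dox and -0.07 with vehicle.

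At equal length the ribosomal protein genes still stood above other genes. Among transcripts under 500 bases the median double siRNA difference was 0.40 for 13 ribosomal protein genes and 0.13 for 253 other genes. From 500 to 1000 bases it was 0.38 for 50 and 0.11 for 2025 others, and from 1000 to 2000 bases 0.30 for 12 and 0.08 for 3258 others. The genes of longer annotated length, Rps20 (0.19) and Rpl22 (0.42), fell in the class of 2000 to 4000 bases. There 4077 other genes had a median of -0.02. After the smooth trend with length over all genes was removed, the median of the 77 was 0.28, with 76 above 0 (54.4% of all genes) and 43 at 1.2-fold or more (8.43% of all genes). After removal of the trends with length and GC content the median was 0.24, with 76 above 0 (52.1%) and 34 at 1.2-fold or more (6.44%); the correlation with length was then -0.0084 over all genes and -0.09 over the 77. Rpl41 kept the largest corrected difference (0.66), followed by Rps14 (0.56) and Rpl34 (0.53), and Rpl23 was the 1 gene no longer above 0 (-0.0042). Rps20, with the longest annotated length and the lowest GC content of the 77, went from 0.19 to 0.47. That value rests on its annotated length. Part of the difference thus moved with length and GC content, and 0.24 of the median of 0.38 remained. Mitochondrial ribosomal protein genes, described further on, had a corrected median of 0.21, so a remainder of this kind was not particular to the 77.

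**Figure D3:**
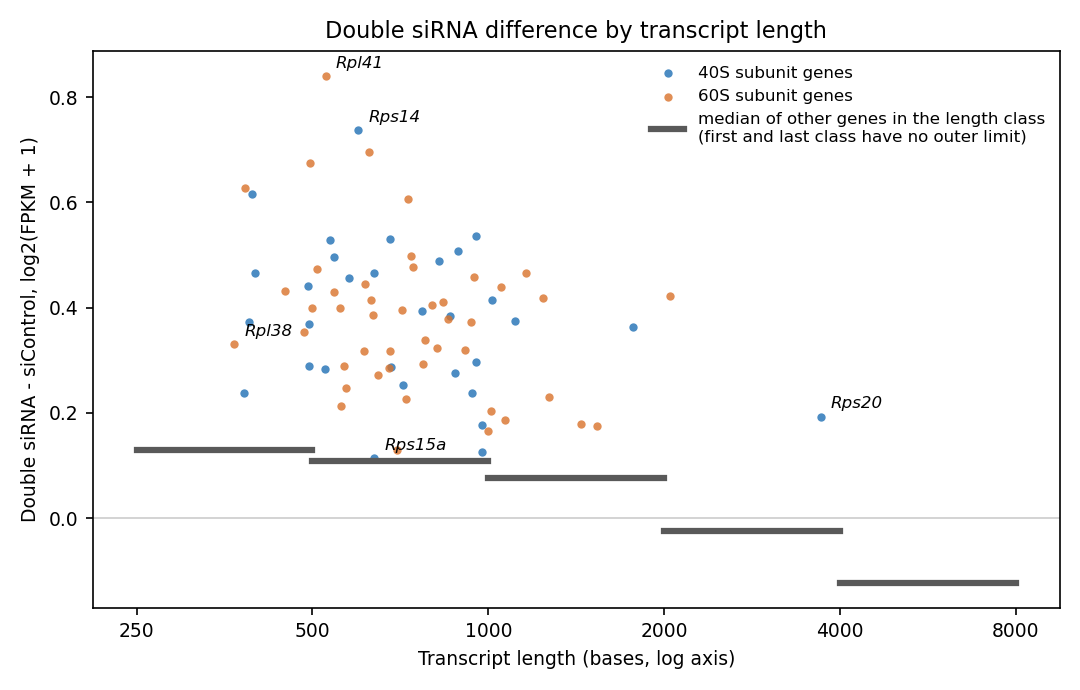
Difference between the double siRNA and siControl libraries in log2(FPKM + 1) against transcript length in bases on a log axis, with 40S genes in blue, 60S genes in orange and grey bars for the median of all other genes in each length class. The other genes fall from 0.13 under 500 bases to -0.12 at 4000 bases or more, and nearly all ribosomal protein genes lie above the bar of their class.

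The size of the difference also rests on how the libraries are scaled. The FPKM sum was 512645 in the siControl library and 586657 in the double siRNA library. With all libraries set to the same FPKM sum, the median of all genes in this comparison moved to -0.16 and that of the 77 to 0.18. Of the 77 genes 20 were then at 1.2-fold or more, beside 322 of 11614 genes. In that scaling 9 of the 77, among them the 6 of smallest difference named above, were below 0, as was the median of all genes. With libraries set to the same sum of all other genes the median of the 77 was 0.25, and the median of all genes was -0.10. There 36 of the 77 were at 1.2-fold or more, beside 566 of 11662 genes. Relative to all genes the ribosomal protein genes were higher by 0.34 to 0.37 in each scaling. A scaling moves all genes of a library by nearly the same amount. This gap is thus nearly fixed in advance, and its likeness across scalings is no separate check.

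In the knock-in cells the ribosomal protein mRNAs of the dox libraries were close to their vehicle levels. No wild-type library received doxycycline, and the summed feeder markers were higher with dox. Effects of miR-203, of doxycycline and of feeder cells therefore cannot be told apart. By limma on log2(FPKM + 1), with Benjamini-Hochberg adjustment over 11927 genes, 0 of 77 rose (17.1% of all genes did) and 2 fell (14.8% did), while 75 did not pass the threshold of 0.05. In either direction 31.9% of all genes passed. The median difference was 0.03 against -0.01 for all genes. At an unadjusted p under 0.05 there were 3 higher (Rpl13a, Rpl17 and Rps20) and 2 lower. The 95% interval of the difference lay within 1.5-fold in both directions for 75 genes and within 1.2-fold for 59. For those genes larger changes lay outside the intervals. No share over all genes is given for the counts by unadjusted p and by interval. Apart from the 2 that fell, the differences ran from -0.16 for Rpl14 to 0.21 for Rpl13a.

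The abundant members show how close the groups were. Rplp0, the stalk base often used as a reference gene in PCR, read 2129 and 1942 FPKM with vehicle and 2136 and 1969 with dox (difference 0.01, SE 0.078; adjusted p = 0.913 by limma). Rpl41 read 2660 and 2520 with vehicle and 2690 and 2659 with dox (0.05, SE 0.065; adjusted p = 0.601 by limma). Rplp1 read 3436 and 3317 with vehicle and 3566 and 3488 with dox (0.06, SE 0.063; adjusted p = 0.465 by limma). The groups overlapped for Rplp0 and Rpl41 and not for Rplp1, where the gap was small. Over the 77 genes both dox libraries were above both vehicle libraries for 29 (35.1% of all genes) and below for 10 (37.1% of all genes). With the clone number as a block, 9 genes rose (25.6% of all genes) and 7 fell (26.7%; 52.3% in either direction), with Rpl13a (0.21), Rpl17 (0.20) and Rps20 (0.16) the largest rises and Rpl34 (-0.57), Rpl30 (-0.43) and Rpl14 (-0.16) the largest falls.

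The 2 genes that fell were those with abundant pseudogene rows, Rpl30 and Rpl34. Rpl30 read 33.1 and 30.1 FPKM with vehicle and 23.0 and 23.2 FPKM with dox, so the groups were apart, with a difference of -0.43 (SE 0.083; 95% interval -0.63 to -0.23; adjusted p = 0.0124 by limma). Rpl34 read 54.0 and 41.8 FPKM with vehicle and 31.7 and 31.6 FPKM with dox, with a difference of -0.57 (SE 0.12; 95% interval -0.87 to -0.27; adjusted p = 0.0179 by limma). Without the first vehicle clone neither passed. Gm12191 read 1305 and 1177 FPKM with vehicle and 1269 and 1179 with dox (-0.02; adjusted p = 0.872 by limma), and Rpl34-ps1 1165 and 1063 with vehicle and 1192 and 1163 with dox (0.08; adjusted p = 0.410 by limma). Each pseudogene row thus stood far above its gene, with no call in the direction of the gene. When the rows were added, the Rpl30 sum differed by -0.03 (adjusted p = 0.808 by limma) and the Rpl34 sum by 0.06 (adjusted p = 0.558 by limma). The pseudogene rows are so much larger that they set these sums, which therefore do not show whether the genes themselves changed. How the authors' quantification divided fragments between gene and copy was not tested.

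**Figure D4:**
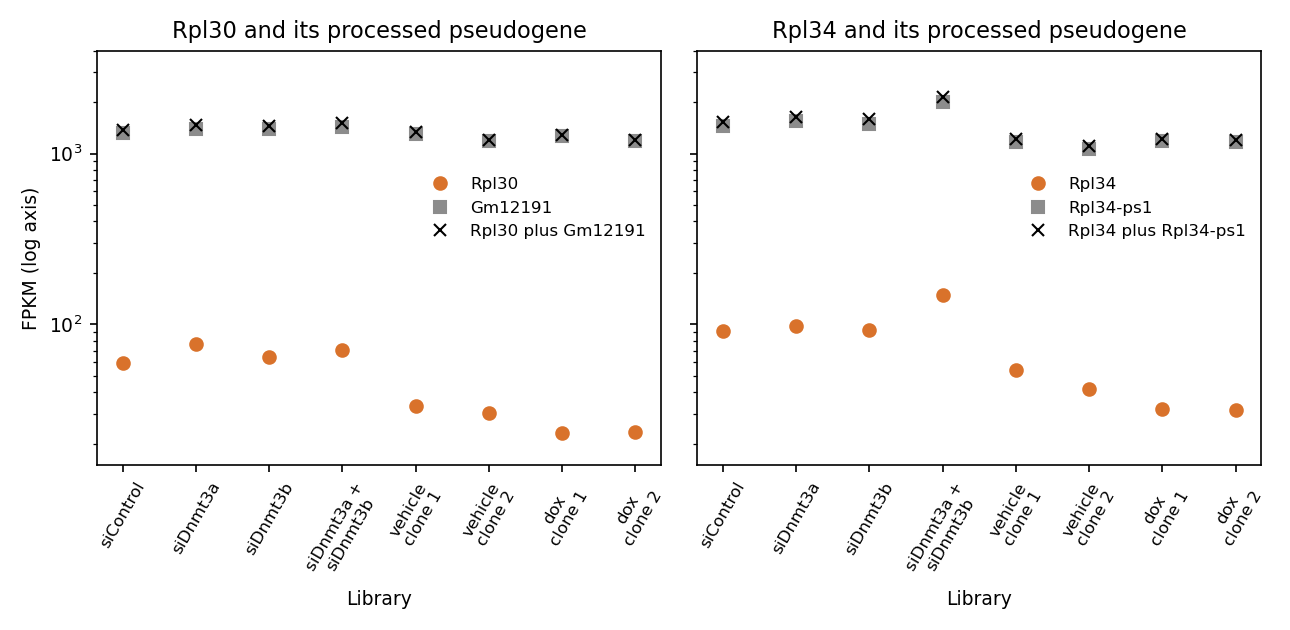
FPKM on a log axis in each of the 8 libraries for Rpl30 (left) and Rpl34 (right), as circles, for the processed pseudogene of each, as squares, and for their sum, as crosses. The genes are lower with dox (23.0 and 23.2 FPKM for Rpl30) than with vehicle (33.1 and 30.1 FPKM). The pseudogene rows and the sums, all above 1000 FPKM, differ little between dox and vehicle. Among the wild-type libraries Rpl34-ps1 is not level, with 1449 FPKM for siControl and 1998 FPKM for the double siRNA library.

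Genes that build ribosomes did fall with dox. Of 54 ribosome assembly genes 43 fell and 0 rose, with a median of -0.39, against 14.8% of all genes that fell. The largest falls were those of Heatr1, needed for rRNA transcription and processing (-0.63, adjusted p = 0.00691 by limma), Nolc1, a nucleolar chaperone (-0.62, adjusted p = 0.00523 by limma), Ddx21, a nucleolar helicase (-0.61, adjusted p = 0.00708 by limma), and Gnl3, or nucleostemin (-0.57, adjusted p = 0.0102 by limma). Of 14 genes for RNA polymerase I and its factors, which transcribe rRNA, 8 fell and 0 rose (median -0.36), with Polr1b, its second largest subunit, at -0.67 (adjusted p = 0.00354 by limma). Of 20 other TOP mRNAs 6 fell and 0 rose (median -0.15). They were Hnrnpa1 (-0.72), Npm1 (-0.48), Eef1d (-0.44), Nap1l1 (-0.35), Eif3l (-0.30) and Eif2s3x (-0.25), while the elongation factor genes Eef1a1 (0.08) and Eef2 (0.14) did not pass. Of 76 mitochondrial ribosomal protein genes 5 fell and 1 rose (median -0.09). The difference between these lists and the ribosomal protein genes was not tested. In the same libraries all 27 feeder markers rose with dox (median 1.59), as did 4 of 8 macrophage markers, and their part in these differences was not tested.

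**Figure D5:**
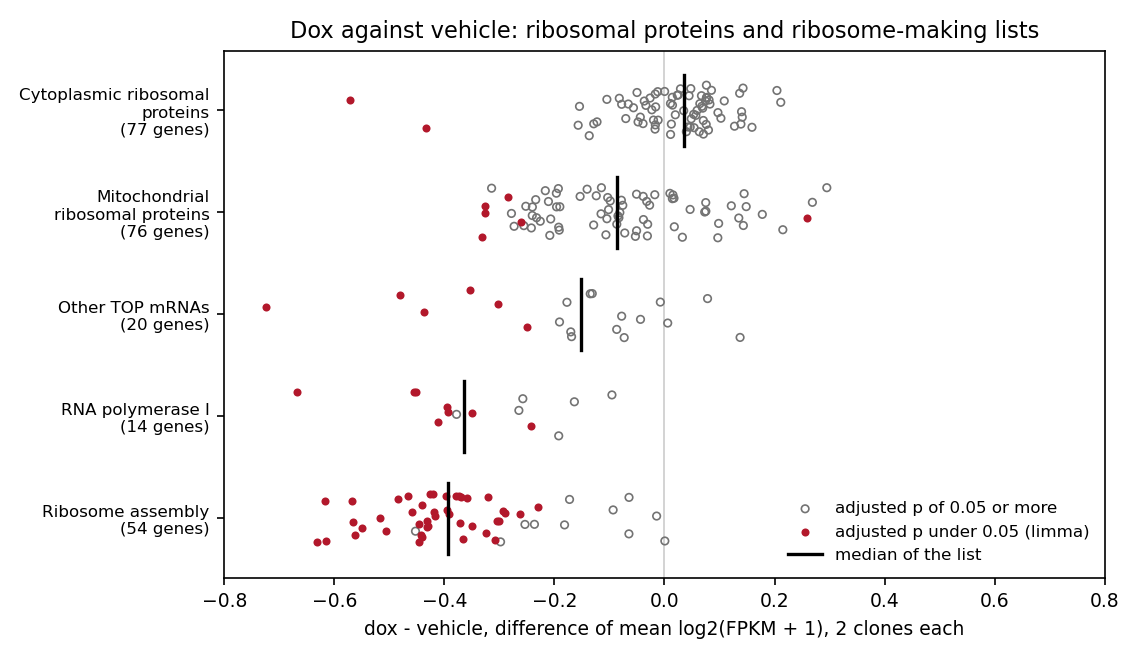
Difference between dox and vehicle in mean log2(FPKM + 1) for each gene of 5 lists, filled red where the adjusted p by limma was under 0.05, with a bar at the median of each list. The 77 cytoplasmic ribosomal protein genes centre on 0.03, with Rpl34 and Rpl30 at the left, while the ribosome assembly genes centre on -0.39.

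In the double siRNA library, over all genes 51.6% were above siControl, 11.5% were 1.2-fold higher and 11.4% 1.2-fold lower. Of the mitochondrial, assembly, RNA polymerase I and other TOP lists, the mitochondrial one came closest to the 77 genes. The median of the 77 was 0.38, and 0.24 after correction for length and GC content. Mitochondrial ribosomal protein genes, also short, had a median of 0.30, with 70 of 76 above siControl and 43 at 1.2-fold or more, and 0.21 after correction for length and GC content. Ribosome assembly genes had a median of 0.12, with 11 of 54 at 1.2-fold higher and 2 at 1.2-fold lower, RNA polymerase I genes 0.09, and other TOP mRNAs 0.10, with 4 of 20 higher and 2 lower. Npm1, which shuttles ribosomal subunits, was at -0.21 and Hnrnpa1 at -0.38, while Eif3k was at 0.41 and Eef1b2 at 0.32. Fau (1111 FPKM with siControl and 1601 with both siRNAs; 0.53) and Rack1, a scaffold on the small subunit listed under its older symbol Gnb2l1 (1788 and 2333 FPKM; 0.38), lay in the range of the 77 genes. With dox neither passed, at 0.05 and 0.08. Feeder markers were lower than siControl in all 3 siRNA libraries, with medians of -0.55, -0.58 and -0.71 for siDnmt3a, siDnmt3b and both, and their part in the ribosomal protein difference was not tested.

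Paralogs of ribosomal proteins with more restricted use were measured in 8 of 10 cases. Rpl10l, an intronless copy that stands in for X-linked Rpl10 in male meiosis, read 25.8, 23.9, 23.8 and 38.6 FPKM in the siControl, siDnmt3a, siDnmt3b and double siRNA libraries, and a mean of 16.04 with vehicle and 9.78 with dox. It was the 1 paralog of the 7 tested that fell (-0.64, adjusted p = 0.0298 by limma). The row Rps4y2, whose current symbol is Rps4l, a near copy of Rps4x, read 396, 412, 411 and 542 FPKM, and 237 with vehicle and 199 with dox (-0.25, adjusted p = 0.0549 by limma). In the double siRNA library it stood at 0.45, where Rps4x itself stood at 0.13. Rpl39l stood at 0.61, Rps27l at 0.28, Rpl7l1 at 0.21 and Rpl36al at 0.20, while Rpl22l1 was at -0.06. Rpl3l, a muscle form, was at 0.45 to 1.01 FPKM in all wild-type libraries and was not tested. Paralogs share long stretches with their parent genes, so their values are uncertain.

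Wild-type libraries as a whole listed more ribosomal protein mRNA than the vehicle-treated knock-in libraries. For 73 of 77 genes all 4 wild-type libraries lay above both vehicle libraries, where 38% of 11931 genes did so, and for 0 genes all lay below, where 38.1% did. The median difference was 0.35, and the 4 genes whose ranges overlapped were Rpl4, Rps15a, Rps23 and Rps4x. With the siControl library alone the median was 0.23, and without the double siRNA library 0.28. Among the largest were Rpl34 (1.12) and Rpl30 (1.07), with the caution on their copies above, then Rpl41 (0.84) and Rpl15 (0.74). Rpl15, of the large subunit, read 726, 796, 750 and 962 FPKM in the wild-type libraries and 472 and 489 with vehicle. With libraries set to the same FPKM sum the median of all genes moved to -0.10 and that of the 77 genes to 0.23, and 2 of them were then below. Genotype, transfection and the summed feeder markers (641 to 815 against 1743 to 1982 FPKM) differ together between these groups and cannot be told apart.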

How the data were processed

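Poly(A) RNA was sequenced on a HiSeq2500 after a strand-marking (dUTP) preparation, per the labels' protocols. The authors deposited 1 table of FPKM values per gene and library. Per the submitters' processing notes, Cuffnorm and Cufflinks 2.2.1 were used with TopHat2 2.0.10 and Bowtie 1.0.0 on the mouse builds mm10 or GRCm38. Which scaling, strand setting and annotation went into the table is not stated in the labels. FPKM do not hold counts, so no count test was used and the depth is unknown. Values were compared as log2(FPKM + 1), so differences of low genes are understated. Dox and vehicle were compared with limma 3.58.1 (lmFit, eBayes with a trend, R 4.3.3), two-sided, over genes whose mean was at least 1 FPKM, Benjamini-Hochberg threshold 0.05; all 77 genes passed that filter. The siRNA libraries were compared by differences alone. Length and GC content came from GENCODE M21, with smooth trends removed by mgcv 1.9.3; promoters came from RefSeq. The limma step was tested on simulated data. Genes were named by rule: those past the threshold with dox, the 6 largest double siRNA differences per direction, the 5 highest and lowest mean levels, Rplp0, Rplp1, Rplp2, Rpsa, the paralogs and up to 4 genes of each related list; other names were picked with their values in view. The genes, lists and markers were chosen with earlier results of these data known. Alternatives covered pseudocounts, filters, scalings, length and GC correction, the clone block, left-out libraries and gene rows added to their copies. Some genes are not reported here.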

Additional observations from a re-analysis of the deposited data

How the results depend on the processing

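Dox against vehicle: the count that fell (2) was 1 with no filter on low values, 7 with the clone number as a replicate block, 12 with the block plus GC and length correction, 0 with Rpl30 and Rpl34 added to their copies (Rpl34 then reversed to 0.059; the copies set these sums), and 0 to 2 when 1 library was left out (0 without the first vehicle clone). Among all genes 960 of 18678 fell with no filter and 3190 of 11927 with the block. With the block plus GC and length correction 2850 of 11813 fell, and with the copies added 1765 of 11927. The count that rose (0) was 2 with the same FPKM sum (2008 of 12008 genes) and 2 with scaling by other genes (2058 of 11954). It was 2 with GC and length correction (1870 of 11813 genes), 9 with the block (3052 of 11927) and 7 with both (2760 of 11813). The median with 1 library left out ran from -0.0012 to 0.081. Same-numbered clones deviated together (Pearson r = 0.44 over 11927 genes, 0.29 over the 77), a hint from the data, not the design.

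The siDnmt3a count (2) was 0 at 1.5-fold and at 2-fold, and 1 with each of the same sum, scaling by other genes, length correction, length and GC correction, and added copies; these alternatives were partly chosen after seeing the data (added copies, the single siRNA reference, and leaving out the double siRNA library). Over all genes, 216 of 11753 were 1.2-fold higher with siDnmt3a at the same sum and 256 of 11780 with scaling by other genes. With length correction 258 of 11654 were, with length and GC correction 252 of 11654, and with added copies 292 of 11768. The double siRNA count (60) was 7 at 1.5-fold, with no share over all genes given, and 0 at 2-fold. It was 20 with the same sum (322 of 11614 genes) and 36 with scaling by other genes (566 of 11662). With length and GC correction it was 34 (748 of 11608 genes). The double siRNA median was 0.18, 0.25 and 0.24 in the last 3, 0.28 with length correction and 0.31 against the single siRNA libraries. Reversed were, with the same sum, Rps3a (-0.018), Rpl4 (-0.020), Rpl7 (-0.028), Rpl23 (-0.066), Rps4x (-0.069) and Rps15a (-0.079), Rps15a with scaling by other genes (-0.0082) and length correction (-0.0029), and Rpl23 with length and GC correction (-0.0042). The length correlation with the longest transcript was -0.49 (all genes) and -0.13 (the 77). Wild type against vehicle: 2 below with the same sum and 1 with siControl alone; the median was 0.23 in both, 0.32 to 0.40 with 1 vehicle clone left out and 0.28 without the double siRNA library. The causes were not tested.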
